A study of Homo sapiens with 18 samples.

Results

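The thyroid carcinoma line TPC1 and its clone D11 were compared after both had been treated with siRNA against Dicer1, to find which transcripts still separated the lines once DICER1 mRNA was low in each. TPC1 is a human papillary thyroid carcinoma cell line, and D11 is 1 single-cell clone of it that was edited with CRISPR-Cas9 and carries a short deletion in 1 Dicer1 allele (Dicer1 +/-). The comparison used 6 of the 18 RNA-seq libraries of the series, 3 of D11 and 3 of TPC1. They were chosen by the column names and sample descriptions, which give the line, the treatment and the replicate number. The other 12 libraries, 3 per group, were of both lines without transfection (NT) or with a negative control siRNA (NC), and served to show whether a difference was there without the knockdown. The siRNA had been given at 5 nM and RNA taken on day 4. The sample titles give another treatment than the descriptions for 12 of the 18 samples but never another line, and the descriptions were used because DICER1 follows them. Because D11 is 1 clone, what separates it from TPC1 as a clone and what separates it as a Dicer1 +/- line cannot be told apart. In bulk RNA, fewer cells with a transcript and less of it per cell cannot be told apart either.

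Dicer1 cuts hairpin precursors into mature microRNAs, which are loaded onto Argonaute proteins and lower the stability and translation of mRNAs with matching sites. In the thyroid, germline and somatic Dicer1 mutations are known from goitre and from thyroid tumours, and loss of microRNAs disturbs follicular cell differentiation. A line that arises from 1 cell also carries whatever that cell had switched off, lost or mutated, whether or not Dicer1 is involved.

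The values are reads per gene that the authors scaled to 20 M reads per library. The libraries of the 6 siDicer samples held 13.6 to 23.2 M reads counted in genes, as estimated from the steps between the rounded values, and 1 read was worth 0.861 to 1.47 scaled reads. The correlation of log2 values over the tested genes was 0.985 to 0.991 between D11 libraries, 0.978 to 0.994 between TPC1 libraries and 0.973 to 0.989 between lines. In a principal component analysis the first component (38.4% of the variance) set TPC1 siDicer replicate 2 apart from the other 5 libraries, and the second (27.9%) had all D11 libraries on 1 side and all TPC1 libraries on the other. Of the thyroid marker genes, PAX8 was high (7690 to 14165 scaled reads over the 6 libraries), TG was low (60 to 114), and TSHR, NKX2-1 and DIO1 were listed at 0 in all 6.

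DICER1 mRNA was low in both lines, and its mean in D11 was not below that in TPC1. It was measured at 297, 451 and 277 scaled reads in the D11 siDicer libraries and at 255, 395 and 246 in the TPC1 siDicer libraries, and the groups overlapped. The means were 341.7 ± 95.2 and 298.7 ± 83.5 (SD, n = 3), a log2 difference of 0.19 with a 95% interval of -0.36 to 0.74. An exact two-sided permutation test without pairing gave p = 0.5, and 3 libraries against 3 cannot go below 0.1. Within each of the 3 replicate numbers D11 was above TPC1, and with the number as a block the interval was -0.04 to 0.43 (limma adjusted p = 0.806). With the negative control siRNA, D11 held 1536, 1433 and 1407 and TPC1 held 2492, 1901 and 2366, so that D11 was at 64.7% of TPC1 and the groups did not overlap. Without transfection D11 was at 60.9% of TPC1. The limma adjusted p of these differences was 0.107 in NC and 0.406 in NT, neither below 0.05. Against the negative control, the knockdown left 23.4% of DICER1 mRNA in D11 and 13.3% in TPC1. Against cells without transfection it left 37.5% in D11 and 20% in TPC1. The line difference in DICER1 moved by 0.81 on the log2 scale between NC and siDicer (95% interval 0.20 to 1.43), with an unadjusted p of 0.0138 and a limma adjusted p of 1 over all genes. The highest siDicer value lay below the lowest control value in each line (451 against 655 in D11, 395 against 1397 in TPC1). The value in both lines was highest in the library numbered 2.

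**Figure D1:**
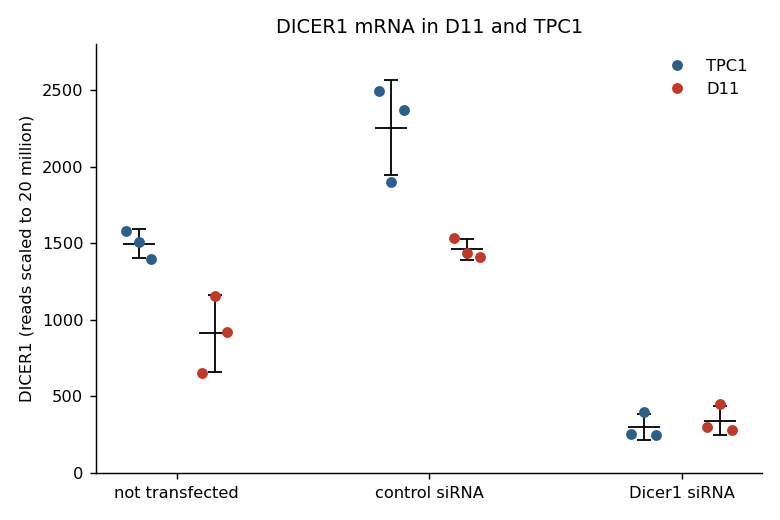
DICER1 mRNA, in reads scaled to 20 M, in each of the 18 libraries by treatment, with TPC1 in blue, D11 in red, and the mean and SD of 3 libraries in black. The D11 points lie under the TPC1 points in the 2 control conditions and overlap them, between 246 and 451, after Dicer1 siRNA.

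Few genes separated the lines after the knockdown, and nearly all of them were lower in D11. Of 17791 genes with at least 10 scaled reads in at least 3 of the 6 libraries, 51 (0.287%) passed an adjusted p below 0.05 and a fold of at least 1.5, of which 4 (0.0225%) were higher and 47 (0.264%) were lower in D11. All 51 had groups that did not overlap, as did 9.12% of all tested genes (3.75% with D11 higher and 5.37% with D11 lower). The 51 were chosen by the test on these same 6 libraries, so their lack of overlap is no further evidence. The test was limma on log2(value + 1) with Benjamini-Hochberg adjustment, so that fitted fold changes of genes near 0 depend on the added 1. EMC10, for example, was fitted at -7.17 with 1 added, at -9.42 with 0.1 added and at -4.73 with 10 added. The median difference over all tested genes was -0.01. The replicate numbers paired the libraries of the lines, and with the number as a block 123 genes passed, 11 higher and 112 lower, all 51 among them. Without 1 library, the count was 28 (D11 replicate 1), 16 (D11 replicate 2), 17 (D11 replicate 3), 16 (TPC1 replicate 1), 68 (TPC1 replicate 2) or 14 (TPC1 replicate 3), the 51 kept their direction in every one of these fits, and 12 of them passed in all 6. These 12 were TGFBI, EMC1, STK33, TRIM22, VILL, MCTP2, NMRAL1, PRSS12, COL5A2, PNMA2, AC106872.5 and AC020909.3, of which STK33, VILL, MCTP2, PRSS12 and AC106872.5 are named here after their values were seen.

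The 47 lower genes ran from a near loss of transcript to a reduction by less than 1 log2 unit. D11 held less than 10% of the TPC1 mean for 17 of them, from 10% to below 40% for 23, and 40% or more for 7. For 11 genes every D11 library had at most 3 reads. GALC, also chosen after its values were seen, codes for the lysosomal enzyme galactosylceramidase. It was listed at 0 in all 3 D11 libraries and at 30, 18 and 33 scaled reads in TPC1. With D11 set to a floor of 3 reads over the 3 libraries, it was 21.0-fold lower. The recovered reads were 0 against 84, and the 95% exact interval of the counts reached up to 5.98% of TPC1.

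**Figure D2:**
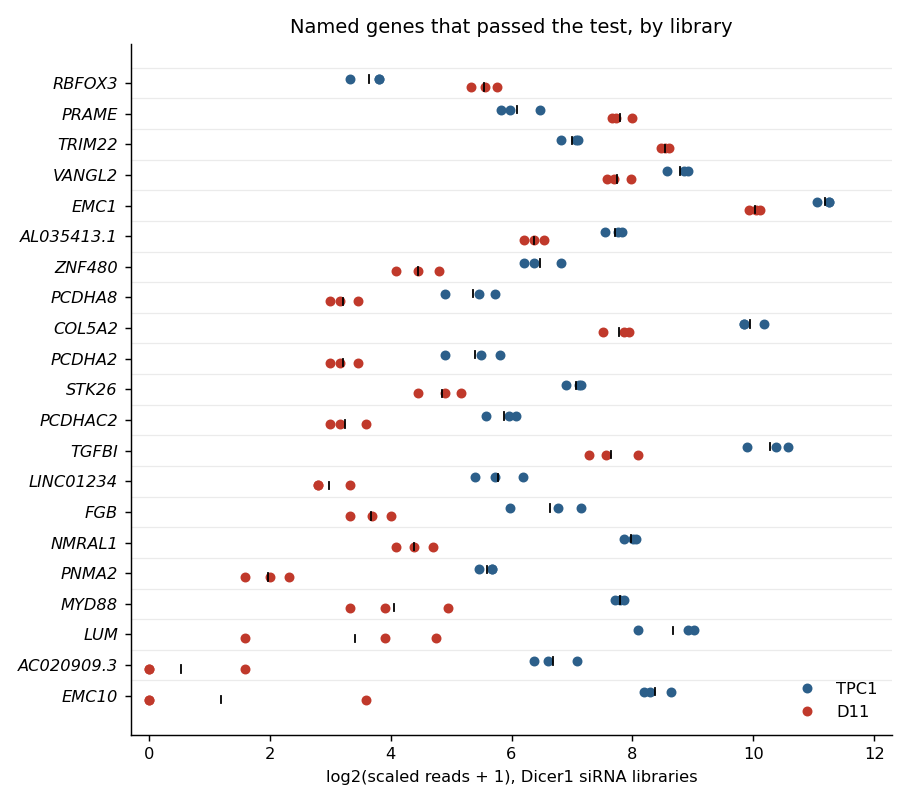
Level of each named gene that passed the test in the siDicer libraries, as log2(scaled reads + 1), with 3 D11 libraries in red, 3 TPC1 libraries in blue and the mean of each as a black bar. No gene has overlapping groups, which the choice of genes by the test favours, and the gap is widest for EMC10, AC020909.3 and LUM at the bottom.

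EMC10 showed the largest difference of all tested genes. It codes for a subunit of the endoplasmic reticulum membrane protein complex (EMC), which inserts transmembrane segments of newly made proteins. It was measured at 11, 0 and 0 scaled reads in the D11 siDicer libraries and at 311, 290 and 396 in TPC1. The log2 difference was -7.17 (SE 0.87, limma adjusted p = 0.0241), and the recovered reads, 8 against 1027, put D11 at 1.04% of TPC1 (95% exact interval of the counts 0.447 to 2.05%). All of the reads in D11 came from replicate 1. The lncRNA AC020909.3, which lies inside EMC10 on the other strand, had 2, 0 and 0 against 96, 82 and 134 scaled reads (log2 difference -6.16, SE 0.48, limma adjusted p = 0.00376). It is not stated whether the counting used the strand, so reads of the overlapping pair cannot be told apart. EMC10 lies at chr19:50476400-50490871 (GRCh38, plus strand), and the nearest tested genes on either side did not pass. The log2 difference was -0.27 for AC020909.1, 0.05 for POLD1 and -0.03 for JOSD2.

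EMC1, the largest subunit of the same complex, was lower as well. Its values were 1104, 1059 and 968 scaled reads in D11 and 2429, 2126 and 2422 in TPC1. D11 was at 44.9% of TPC1 (log2 difference -1.15, SE 0.09, limma adjusted p = 0.00392). The other 8 EMC subunits measured, a set chosen after the values were seen, differed by -0.07 to 0.05 on the log2 scale, and none passed (smallest unadjusted p = 0.487). EMC1 lies on the minus strand at chr1:19215660-19251552. The antisense lncRNA AL035413.1 (82, 92 and 73 against 226, 185 and 216 scaled reads) and the next gene MRTO4 (1184, 1149 and 1072 against 2274, 1872 and 2160), which codes for a ribosome assembly factor, were also lower. On the other side of EMC1, UBR4, a ubiquitin ligase, was at 69.1% and AL137127.1 at 70.5% of TPC1, and neither passed (limma adjusted p = 0.333 and 0.485). Beyond MRTO4, AKR7L (log2 difference -0.31) and AKR7A3 (-0.86) did not pass either, and AKR7A2 (-0.03) and CAPZB (-0.09) were near 0. The genes that passed here, AL035413.1, EMC1 and MRTO4, lie next to each other.

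MYD88, the adaptor through which Toll-like and interleukin-1 receptors activate NF-kB, was nearly lost in D11. It was at 30, 14 and 9 scaled reads against 209, 220 and 232 in TPC1. The log2 difference was -3.73 (SE 0.37, limma adjusted p = 0.00906), or 8.02% of TPC1. VILL, which codes for a villin-like actin-binding protein and lies upstream of MYD88 on the same strand of chromosome 3, had 3, 2 and 3 against 58, 55 and 63 scaled reads. The 3 tested genes between them, PLCD1 (log2 difference -0.45), DLEC1 (-0.09) and ACAA1 (-0.12), did not pass. Of 18 tested inflammatory cytokines and NF-kB targets, 0 passed, beside 0.287% of all tested genes, so a count of 0 in a list of this size is near the background. Of the 18, 3 were fitted above 0, beside 46.8% of all tested genes. The median difference of the list was -0.18 in siDicer, -0.42 in NC and -0.02 in NT. ICAM1, an adhesion molecule and NF-kB target, came nearest to passing with 3, 2 and 0 against 30, 22 and 30 scaled reads (log2 difference -3.62, limma adjusted p = 0.0512, and 0.0192 with the replicate block, where it passed). ICAM1 is also 1 of the 9 genes that the study had singled out in its heterozygous lines. IL11 had 127, 153 and 122 against 81, 86 and 82 (limma adjusted p = 0.262).

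**Figure D3:**
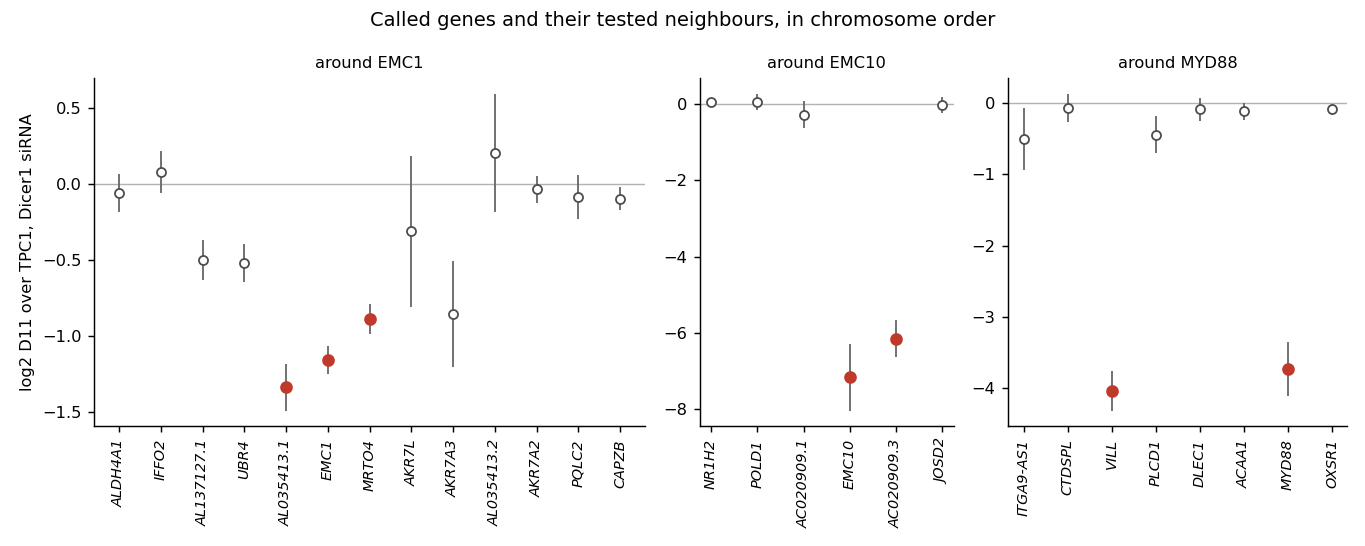
Log2 difference of D11 over TPC1 in the siDicer libraries (points, with SE as bars) for the tested genes around EMC1, EMC10 and MYD88 in chromosome order, with genes that passed the test filled in red. EMC10 and AC020909.3 fall below -6 beside neighbours near 0, MYD88 and VILL have genes near 0 between them, and around EMC1 a run of genes lies below 0.

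The sequence before the start of 3 lower genes is shown, from RefSeq (GRCh38.p14), because EMC10 and MYD88 were nearly lost in D11 and TGFBI had the highest TPC1 level among the secreted matrix genes that passed. Each sequence is on the plus strand and ends at the base before the first annotated transcript, and CG dinucleotides, where DNA can be methylated, are in capitals. EMC10 is at chr19:50476257-50476399, MYD88 at chr3:38138411-38138551 and TGFBI at chr5:136028738-136028987.
EMC10: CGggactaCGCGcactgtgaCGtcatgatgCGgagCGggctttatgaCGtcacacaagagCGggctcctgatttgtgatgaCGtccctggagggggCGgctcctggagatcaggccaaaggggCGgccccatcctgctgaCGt
MYD88: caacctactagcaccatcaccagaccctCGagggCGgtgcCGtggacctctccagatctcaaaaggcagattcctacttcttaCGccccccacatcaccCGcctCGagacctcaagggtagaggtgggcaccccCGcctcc
TGFBI: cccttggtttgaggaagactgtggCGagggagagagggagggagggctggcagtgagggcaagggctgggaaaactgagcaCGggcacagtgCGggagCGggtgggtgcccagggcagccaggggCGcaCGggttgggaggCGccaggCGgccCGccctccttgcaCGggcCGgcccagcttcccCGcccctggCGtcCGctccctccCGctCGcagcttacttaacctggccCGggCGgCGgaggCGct
Over the whole RefSeq window (250 bases before and 50 after the start) these held 29, 25 and 27 CG dinucleotides. A promoter sequence was found for 36 of the 47 lower genes, and 52.8% of these were CpG-rich (at least 55% G and C and an observed over expected CpG ratio of at least 0.65), beside 71.5% of the 10648 tested genes with a promoter. Without the alpha protocadherins, 27 of 36 had one, and 70.4% of these were CpG-rich. The 3 higher genes with a promoter sequence had none that was CpG-rich. DNA methylation was not measured here.

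NMRAL1, an NADP(H) sensor of the cytosol, had the smallest adjusted p of all tested genes. D11 libraries held 16, 20 and 25 scaled reads and TPC1 libraries 232, 258 and 266. The difference was -3.59 on the log2 scale (SE 0.20, limma adjusted p = 0.00152). In the NC libraries D11 held 49, 42 and 54, so the gap was wider by 0.97 on the log2 scale after the knockdown, with an unadjusted p of 0.00239 and a limma adjusted p of 1.

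LUM, TGFBI, COL5A2 and FGB, which code for secreted proteins, were lower in D11. LUM, which codes for the collagen-binding proteoglycan lumican, was at 26, 2 and 14 scaled reads in D11 and at 483, 273 and 517 in TPC1. Its log2 difference was -5.26 (SE 0.71, limma adjusted p = 0.0384). TPC1 had 157, 101 and 132 scaled reads of LUM in the NC libraries and D11 had 2, 0 and 0. The siDicer mean was above the NC mean in both lines, and the change of the line difference was 1.22 on the log2 scale with an unadjusted p of 0.218. TGFBI, a matrix protein induced by TGF-beta that binds integrins, was at 155, 187 and 272 against 952, 1331 and 1520 scaled reads. The log2 difference was -2.64 (SE 0.24, limma adjusted p = 0.00504). COL5A2, a chain of type V collagen, was at 245, 181 and 231 against 917, 918 and 1150, a log2 difference of -2.18 (limma adjusted p = 0.00266). COL5A1, the chain it assembles with, was at 1699, 1826 and 1938 against 1480, 1142 and 1367 and did not pass (log2 difference 0.46, limma adjusted p = 0.37). FGB, the fibrinogen beta chain, was at 12, 15 and 9 against 108, 62 and 141. Of the 32 tested genes of the list of matrix and adhesion genes, 1 (COL5A2) passed, beside 0.287% of all tested genes. The median difference of the list was -0.10. Of the 32, 7 had a limma unadjusted p below 0.05, beside 4.2% of all tested genes. LUM is also a fibroblast marker. Of 20 markers of other cell types, 5 were at 0 in every D11 siDicer library and 5 in every TPC1 siDicer library, and their sum was 186 to 244 scaled reads in D11 and 405 to 756 in TPC1, or 184 to 224 and 132 to 239 without LUM. RBFOX3, a neuronal marker, is the only other one that passed.

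The alpha protocadherins, adhesion proteins made from a cluster of first exons spliced to shared last exons, fell together. PCDHAC2 was at 7, 8 and 11 scaled reads in D11 and 66, 47 and 61 in TPC1 (log2 difference -2.62, SE 0.27, limma adjusted p = 0.0105). PCDHA8 was at 7, 8 and 10 against 52, 29 and 43, and PCDHA2 at 7, 8 and 10 against 55, 29 and 44. Of 15 tested PCDHA genes 11 passed, and the 15 ranged from -2.62 to -1.75. The count of the clustered protocadherins that passed was 1 without a filter on low values and 1 at a pseudocount of 0.1. It was 1 without D11 replicate 1 or 3, 0 without D11 replicate 2 or TPC1 replicate 1 or 3, 14 without TPC1 replicate 2 and 15 with the replicate block. Their values are nearly the same library by library, and the annotated genes share exons, so the 11 are 1 signal and not 11. Counted once, 41 genes in place of 51 separated the lines. The neighbouring beta and gamma clusters did not follow. The 6 tested PCDHB genes lay at 0.15 to 1.07 and the 22 PCDHG genes at 0.04 to 0.13, and none passed.

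The remaining lower genes that the rule named covered several functions. STK26, a kinase of the STE20 family, was at 35, 21 and 29 scaled reads against 138, 141 and 119 (limma adjusted p = 0.00906). VANGL2, a core protein of planar cell polarity, was at 251, 190 and 205 against 459, 482 and 381 (limma adjusted p = 0.0447). ZNF480 was at 27, 21 and 16 against 82, 73 and 112. It was the single gene that passed among 160 tested zinc finger genes of chromosome 19, beside 0.287% of all tested genes. The median difference of the 160 was 0.06. With the replicate block 4 of the 160 passed, beside 123 of all 17791 tested genes. Without it, limma gave 17 of them an unadjusted p below 0.05, 8 higher and 9 lower, beside 4.2% of all tested genes. For STK26, VANGL2 and ZNF480 the groups were apart. The following were chosen after their values were seen. SLC1A1, a glutamate transporter, was at 6, 2 and 2 against 70, 86 and 26 scaled reads, and PRSS12, a secreted serine protease, at 3, 5 and 6 against 111, 60 and 65. The transcription regulators ESRRG and EYA1 were at 34.7% and 50.3% of TPC1. CHST9, a sulfotransferase, was at 50.6%, PLCXD1 at 57.2% and BEX4 at 59.4%.

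4 genes were higher in D11. PRAME, a cancer testis antigen, was at 202, 212 and 254 scaled reads in D11 and at 56, 88 and 62 in TPC1. It was 324% of TPC1 (log2 difference 1.70, SE 0.20, limma adjusted p = 0.0205). TRIM22, an interferon-inducible ubiquitin ligase, was at 371, 387 and 353 against 136, 133 and 112 (log2 difference 1.54, SE 0.13, limma adjusted p = 0.00422). None of 25 tested interferon stimulated genes passed, beside 0.287% of all tested genes, so a count of 0 in a list of this size is near the background. Their differences ran from -1.59 to 0.87 with a median of -0.03. RBFOX3, a neuronal splicing factor, was at 53, 46 and 39 against 13, 13 and 9. TENM2, a teneurin cell adhesion receptor named here after its values were seen, had 57, 140 and 93 against 7, 4 and 3 scaled reads, the largest rise (log2 difference 4.08, SE 0.40, limma adjusted p = 0.00883). Of the cancer testis list only 3 genes were tested, and the other two, SSX2IP and CTAGE5, carry the prefix without being such antigens.

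The genes that separated the lines after the knockdown had separated them without it. All 51 had the same direction in NC and in NT, comparisons that share no library with the siDicer one. In NC, 51 of 51 had an unadjusted p below 0.05 and 27 passed the test, where 41 of 18068 genes (0.227%) passed, 4 higher (0.0221%) and 37 lower (0.205%). In NT, 50 of 51 had an unadjusted p below 0.05 and 28 passed, where 47 of 17984 genes (0.261%) passed, 6 higher (0.0334%) and 41 lower (0.228%). The exception was MRTO4. The groups did not overlap for 51 genes in NC, beside 8.48% of all genes tested there (3.91% with D11 higher, 4.57% lower), and for 50 in NT, beside 10.6% (4.4% higher, 6.23% lower). In all 3 conditions 22 genes passed, among them EMC10, EMC1, MYD88, NMRAL1, LUM, COL5A2, STK26, PRAME and TENM2. Over the 51, the median difference was -2.19 in siDicer, -2.10 in NC and -1.85 in NT. The 11 alpha protocadherins, which are 1 signal, enter these counts, medians and correlations as 11 genes. The siDicer median is the value of 1 of them, PCDHA2. Across the 51 genes, which are not independent replicates, the differences correlated with Pearson's r = 0.959 to NC and 0.956 to NT, beside 0.719 and 0.629 over all genes tested in both. The 51 were chosen for differences of at least 0.75 in size. Their wide range raises r, so the higher r does not show that they repeated better than other genes. With the replicate block, whose numbers paired the NC libraries too, 232 genes passed in NC.

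**Figure D4:**
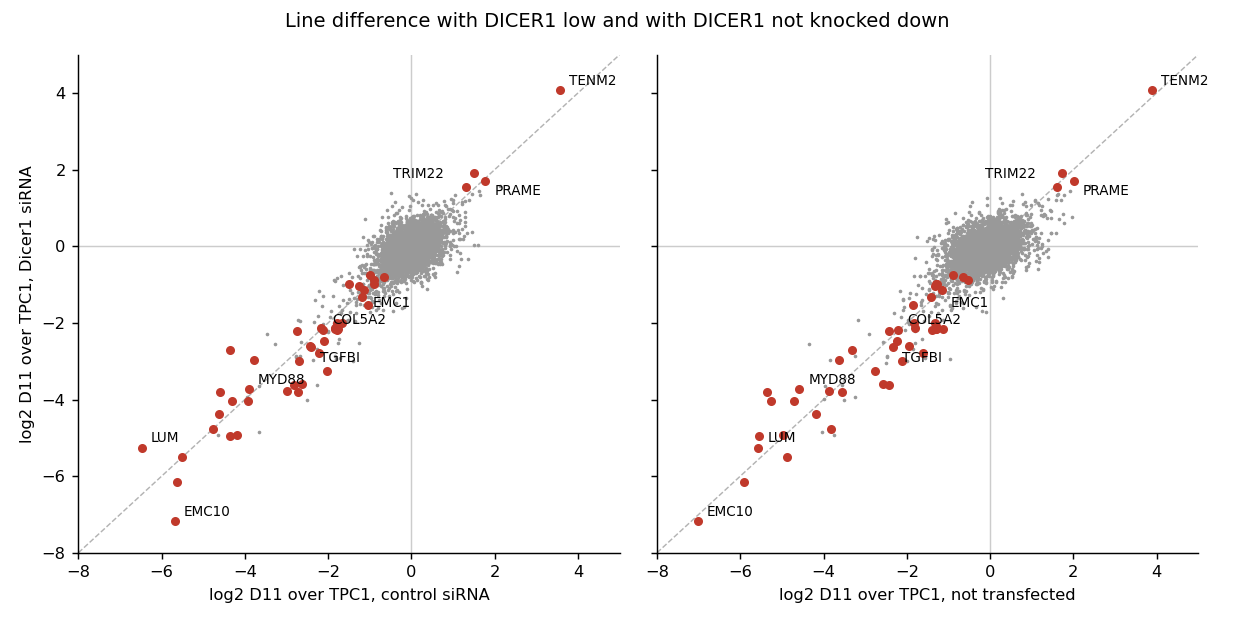
Log2 difference of D11 over TPC1 after Dicer1 siRNA (vertical) against that with control siRNA (left) and without transfection (right), 1 point per gene, with the 51 genes that passed in siDicer in red and equality as a dashed line. The red points lie near the dashed line in both panels, from EMC10 at the lower left to TENM2 at the upper right.

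No gene's line difference was shown to change with the knockdown. The change between NC and siDicer was tested on 18757 genes and limma called 0 (129 had an unadjusted p below 0.05, or 0.688%). With NT in place of NC 0 were called as well (236 unadjusted), and with NT and NC together 0 (133 unadjusted). Among the 51, the change ran from -1.49 to 1.65 on the log2 scale, and 3 genes (NMRAL1, PRSS12 and EXO5) had an unadjusted p below 0.05.

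Of the genes of the microRNA pathway and of the cell cycle none passed. With 0.287% of all tested genes passing, counts of 0 in lists of this size are near the background. Of 18 tested microRNA pathway genes, among them DROSHA (999, 942 and 860 scaled reads in D11, 1001, 847 and 944 in TPC1), none passed, and the median difference was 0.02. DROSHA cuts the primary microRNA transcript before Dicer1 acts, and its values overlapped. Among 15 tested let-7 targets the median was 0.01 and 0 passed, with HMGA2, a chromatin protein, at 7759, 6475 and 6397 against 6073, 5951 and 5570 (limma adjusted p = 1). TRIM71, a repressor of differentiation and a let-7 target, was at 3, 0 and 2 against 21, 12 and 21 (limma adjusted p = 0.148, and 0.0232 with the block). The 43 S phase genes (median -0.04) and the 54 G2/M genes (median -0.05) had 0 with an unadjusted p below 0.05, beside 4.2% of all tested genes. The 13 mitochondrially encoded mRNAs were all fitted above 0 with a median of 0.15, of which 1 had groups that did not overlap and 0 passed. Mesenchymal and epithelial markers had 0 of 13 past the test, although CLDN1, a tight junction claudin, was at 3494, 2293 and 3224 against 7630, 4377 and 5936 (log2 difference -0.98, limma adjusted p = 0.261, and 0.00127 with the block, where it passed). The lists of antigen presentation (13 tested), thyroid differentiation (6), MAPK output (19), receptor tyrosine kinases (28) and ATF4 targets (12) had no member that passed either. Nor had imprinted genes (14), microRNA hosts (11), HOX genes (3) and neighbours of DICER1 (26). The 3 HOX genes were fitted at -0.94 to -0.63, and limma gave 0 of them an unadjusted p below 0.05. With the block 1 receptor tyrosine kinase, EPHA5, passed.

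The study had singled out 9 genes in another RNA-seq experiment, as shared by its 3 heterozygous lines, D11 among them. It compared the lines without Dicer1 siRNA, and it reports that RT-qPCR of the 9 genes gave the same result. In the siDicer libraries 7 of the 9 genes were tested and 2 passed. All 7 were fitted lower in D11 with a limma unadjusted p below 0.05, beside 2.75% of all tested genes in that direction. PNMA2, a paraneoplastic antigen, was at 4, 3 and 2 scaled reads against 50, 50 and 43 (limma adjusted p = 0.00422). The lncRNA LINC01234 was at 6, 6 and 9 against 72, 41 and 52 (limma adjusted p = 0.0151). These 2 passed. EPHA5, an ephrin receptor, was at 20, 2 and 5 against 200, 54 and 135 (limma adjusted p = 0.123, and 0.00113 with the block, where it passed). ICAM1 was at 3, 2 and 0 against 30, 22 and 30 (limma adjusted p = 0.0512, and 0.0192 with the block, where it passed). With the block 4 of the 9 genes passed. SMIM10 (4, 0 and 2 against 17, 18 and 21), CASP10, an initiator caspase (3, 6 and 15 against 11, 28 and 24) and PPP1R3C, a glycogen-targeting phosphatase subunit (15, 11 and 10 against 25, 15 and 25) did not pass with or without the block. ZNF28 (3, 0 and 2 against 8, 3 and 10) and ZNF468 (7, 3 and 2 against 6, 2 and 8) were too low to be tested in siDicer. Of the 9 genes, PNMA2 and LINC01234 passed in NC. In NT PNMA2, LINC01234 and EPHA5 passed (limma adjusted p = 0.026, 0.0479 and 0.00738). ZNF28 was tested in NC, at 7, 2 and 7 against 13, 20 and 26, and did not pass (limma adjusted p = 0.514). ZNF468 was at 4, 4 and 0 against 9, 11 and 14 in NT and was not tested there.

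The 51 genes were spread over the genome. The 50 with a position (GENCODE v44, GRCh38) lay at 36 places on 19 chromosomes when genes within 500 kb were joined, and 32 places held 1 gene. The 4 places with more were those of EMC1, EMC10, MYD88 and the alpha protocadherins. The median difference of the nuclear chromosomes ran from -0.03 to 0.01. For the 47 with another tested gene within 500 kb that did not pass, the median over the 47 of the neighbours' median difference was -0.01. Chromosome 5 had 13 of the 51, of which 11 were the alpha protocadherins.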

How the data were processed

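Total RNA of TPC1 and D11 cells was sequenced by the authors as stranded poly(A) libraries, read pairs were aligned with STAR 2.5.3a to GRCh38 and counted per gene (Ensembl release 90) with HTSeq 0.9.1, per the submitters' notes and methods. The deposited values are a score: the authors scaled each library's reads to 20 M and rounded up, so the edgeR test of the study could not be run as described. Here log2(value + 1) was fitted with limma 3.58.1 (limma-trend, R 4.3.3) over genes of at least 10 in at least 3 of the libraries compared, with Benjamini-Hochberg adjustment. A gene passed at an adjusted p below 0.05 and a fold of at least 1.5. Reads per gene were recovered from the steps of the values (in 4 of the 6 siDicer libraries 99.7 to 100.0% of values from 1 to 400 fell on a step; TPC1 replicates 1 and 3 are deeper than the scaling target, so every whole value can occur there and their reads are estimates), and intervals and floors from them cover counting error only. The fits were tested on simulated data. The named genes were DICER1, up to 12 per direction with the largest difference among genes that passed, had no overlap and a higher group mean of at least 100, up to 3 passing genes per list by adjusted p, up to 5 per direction in the change with knockdown (there were none), and the 9 genes of the study. Any other gene was chosen after its values were seen. The members and lists were chosen with earlier results of these data known. Same-numbered libraries of the lines deviated together (Pearson 0.194 to 0.383 in siDicer, 0.24 to 0.495 in NC, 0.098 to 0.442 in NT), and with every pair above 0.1 in siDicer and NC, but not in NT, the block was read as a pairing in the first and second of these. The labels do not say what a replicate number marks, so p-values measure the spread between these libraries. Alternatives were other scalings, filters, pseudocounts, models, groupings, the replicate block and leaving libraries out. Gene positions were matched by identifier for 57532 of 58302 genes. 1 gene list examined is not reported here.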

Additional observations from a re-analysis of the deposited data

How the results depend on the processing

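In siDicer, 51 genes passed, and 48 did with either other scaling, 40 without a filter, 56 at a pseudocount of 10, 35 with voom on recovered reads and 39 with the alpha protocadherins as 1 gene (chosen after seeing the data). The count was 7 with a mean of at least 100, 28 at a pseudocount of 0.1, 101 with all 18 libraries, 30 with groups from the titles, 17 without the libraries numbered 2, 123 with the replicate block, and 14 to 68 with 1 library left out, where all 51 kept their direction. A fit without 1 library has fewer samples by construction. Lists with a gene that passed numbered 5, and 1 with the mean filter, 10 with the block, 2 without the libraries numbered 2 and 2 to 8 with 1 library left out. The DICER1 difference of 0.194 ran from -0.024 (without D11 replicate 2) to 0.412 with 1 library left out and was -0.392 with groups from the titles. In NC 41 passed, and 26 at a pseudocount of 0.1, 232 with the replicate block and 6 to 46 with 1 library left out. In NT 47 passed, and 29, 413 and 9 to 38. The change with knockdown had 0 genes past the test in all 19 alternatives. Among 26 named genes tested, no direction reversed, and 360 of 477 gene-by-setting values kept their side of the threshold, 108 lost it and 9 gained it. Where counts moved for other reasons, the cause was not tested. Genes below about 10 scaled reads in both lines could not be tested at this depth.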
